A study of Mus musculus with 6 samples.

Results

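LT7 cells, a line of long cells that overexpress SIRT7, were compared with GFP control cells on 4 single-colour expression arrays, 2 per group. Both groups are NIH3T3 cells, an immortalized mouse embryonic fibroblast line. The control cells (genotype label "expressing GFP") were transduced with a retroviral vector for green fluorescent protein, and the LT7 cells (label "overexpressing SIRT7") with the same vector for SIRT7 joined to GFP. Both were selected with geneticin, grown in DMEM with fetal bovine serum and expanded from single-cell clones. LT7 cells had been picked from the elongated cells that surrounded compact colonies, in cultures kept confluent, and were then cloned again. No such step is described for the GFP cells. The promoter of the vector and the species of the SIRT7 cDNA are not given in the sources used here, and nor is the number of clones behind each group. A difference between the groups can therefore belong to the clone, to the confluent culture and picking or to SIRT7, and these cannot be told apart. The replicates of a group were RNA from different passages, so that p-values measure the spread between passages and arrays, and not between clones. A further group of 2 arrays, the small cell line ST7, entered only the estimate of that spread.

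A probe was used when it carried the accession of a protein-coding transcript (NM_) and the scanner software had marked it as well above background on both GFP arrays or on both LT7 arrays. Of the 61307 probes on the array 18191 met this rule. They stood for 12406 of the 50090 gene names, and each gene was counted once, on its brightest probe. Signals are the processed intensities of the scanner software. Changes are differences of log2 signal, LT7 minus GFP, taken relative to each array's 75th percentile.

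SIRT7 is a nuclear NAD+-dependent deacylase of the sirtuin family that is enriched in the nucleolus. It is known for promoting transcription by RNA polymerase I and for removing the acetyl group from lysine 18 of histone H3. Fibroblasts secrete the collagens and proteoglycans of connective tissue, and in inflamed tissue they also make cytokines, chemokines and acute phase proteins. In growing cells the SREBP transcription factors switch on the genes of cholesterol synthesis when membrane sterol is low.

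The arrays did not match equally well. Over the probes used the 2 GFP arrays correlated at r = 0.9936 and the 2 LT7 arrays at r = 0.9765, while LT7 replicate 2 correlated with the GFP arrays at 0.9788 and 0.9784, and LT7 replicate 1 at 0.9633 and 0.9637. LT7 replicate 1 was also the single array read in a second scan. Of the RNAs spiked into every sample 5 were used, those well above background and unsaturated on all 6 arrays. Their mean log2 signal was 12.86 on LT7 replicate 1, against 8.69 on LT7 replicate 2 and 8.56 and 8.75 on the GFP arrays. The lowest signal well above background was 20.02 and 22.3 on the LT7 arrays and 13.5 on each GFP array, and 662 of the 12406 genes did not reach that mark on either LT7 array, against 24 in GFP. Such genes are said here to be at background. Of these only the least fold is given, computed against this lowest signal on each array of the dim group (or the gene's own signal where it was higher).

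Sirt7 itself (NM_153056) was measured by a pair of probes. The brighter one read 3125 and 2480 on the GFP arrays and 3633 and 2782 on the LT7 arrays, a log2 change of 0.29 (SE 0.20, limma, adjusted p = 0.59). The ranges of its raw signals overlapped. After the scaling used for the changes, both LT7 arrays lay above both GFP arrays, as they did in 27.6% of all genes. They lay 0.43 and 0.15 above the GFP mean on the log2 scale, and neither probe was called. Whether these probes match the introduced cDNA is not known. All 12 fibroblast markers were well above background on all 4 arrays. Of the 12, Col1a1, Col1a2, S100a4 and Dcn were saturated on 1 or more arrays, so that their levels in the groups cannot be compared, and the other 8 summed to 177479 and 157725 in GFP and 218646 and 206538 in LT7. Of the other cell types the 5 adipocyte markers were the brightest and were lower in LT7, with a sum of 3714 and 3047 in GFP and of 1419 and 979 in LT7. Most of this was Lpl, at 3194 and 2573 against 1348 and 899 (2.43-fold lower, not called, limma, adjusted p = 0.066). The 8 epithelial markers summed to 198 and 117 in GFP and 185 and 137 in LT7, the 5 endothelial ones to between 27.7 and 37.4 on every array, and of the 5 skeletal muscle markers none met the rule. The 6 macrophage markers summed to 355 and 251 in GFP and to 414 and 340 in LT7, with Ptprc, Adgre1 and Itgam at background on all 4 arrays. Their part in the changes below was not tested.

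At an adjusted p under 0.05, limma called 109 genes up in LT7, which is 0.879% of the genes, and 183 down, which is 1.48%. These shares are the background for every count of called genes in a list below. By scaled signal every called gene lay at least 2-fold from the GFP mean on both LT7 arrays. For genes at background this takes in values near the floor, and their least fold can be under 2. The fold alone was met by 221 genes upward (1.78%) and 319 downward (2.57%). In 3428 genes (27.6%) both LT7 arrays lay above both GFP arrays and in 2313 (18.6%) both lay below, which is the background for any statement that the groups do not overlap. The median change of all genes was 0.07, from 0.14 on LT7 replicate 1 and 0.01 on LT7 replicate 2. Of the genes called down 111 lay at background on both LT7 arrays, and of those called up 21 did so on both GFP arrays. In these genes the lower group holds values near the floor, so that its spread does not measure the passages and the adjusted p is to be read with this limit. The ST7 arrays, which entered the spread, had 26.4% and 25.6% of all probes well above background. On the LT7 arrays it was 47.4% and 47.5%, and on the GFP arrays 57.5% and 53.5%.

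**Figure D1:**
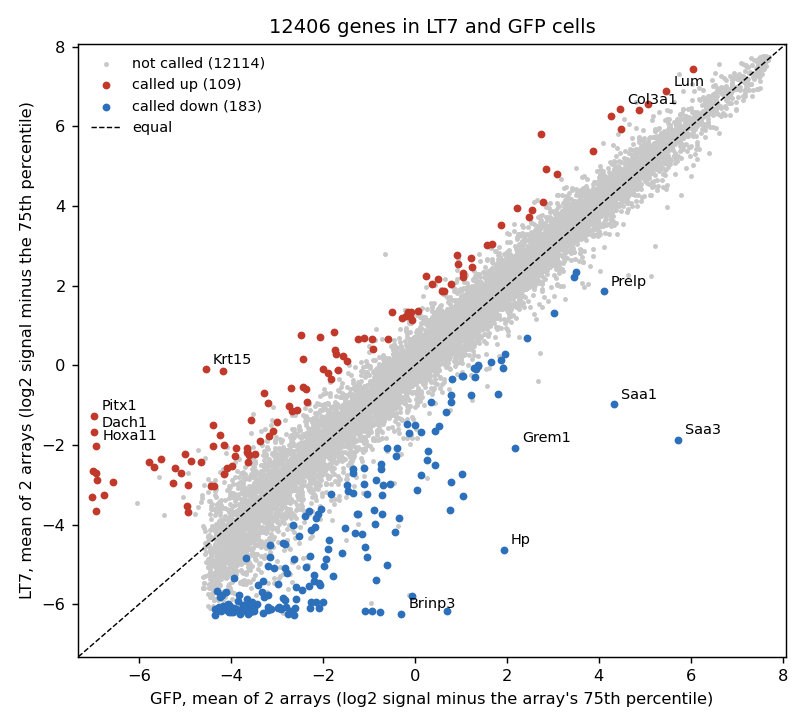
Each point is a gene, placed by the mean of the 2 GFP arrays (x axis) and of the 2 LT7 arrays (y axis), both as log2 signal minus the 75th percentile of the array; colours mark the 109 genes called up and the 183 called down by limma. Saa3, Saa1, Hp and Grem1 lie far below the line of equal signal, and the cluster of points along the lower edge holds genes that were not well above background in LT7.

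These calls depended on single arrays. Per probe limma called 130 up and 244 down, so that 34.8% of the calls were up. Without GFP replicate 1 it called 3 up and 5 down, without GFP replicate 2 it called 4 and 6, without LT7 replicate 1 it called 34 and 117, and without LT7 replicate 2 it called 289 and 791. The genes called without GFP replicate 1 were Pitx1, Hoxa11, Hp, Brinp3, Akr1c18 and a gene known by a clone name, and without GFP replicate 2 Dach1 and Saa1 joined them. Every other called gene lost its call in at least 1 of these fits, while its change kept its direction unless said otherwise. The share of calls that were up was 21.3% without scaling, 31.4% with quantile normalization, 61.8% with normexp background correction and 0% with scaling on the spiked RNAs.

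Of the 37 gene lists the one for cholesterol had the highest median change. Of its 31 genes of synthesis and uptake that met the rule, 9 rose and 1 fell by limma's test, and 18 lay at least 2-fold higher on both LT7 arrays, against 1.78% of all genes. In 24 of the 31 both LT7 arrays lay above both GFP arrays, against 27.6% of all genes. The median change of the list was 1.20, and 1.25 and 1.18 on the single LT7 arrays, against 0.07 over all genes. The 9 genes called are Sqle, Fdft1, Lss, Msmo1, Cyp51, Acat2, Tm7sf2, Nsdhl and Srebf2. Acat2 acts at the head of the route, and no gene between it and Fdft1 was called. The other enzymes act from squalene synthesis to the trimming of lanosterol, and Srebf2 is a regulator.

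Acat2, which joins acetyl-CoA units at the head of the route, had a signal of 370 and 300 on the GFP arrays and of 966 and 726 on the LT7 arrays. It rose 2.69-fold (log2 change 1.43, SE 0.22, limma, adjusted p = 0.040). Hmgcs1, the synthase of the following step, read 7535 and 8993 in GFP and 29389 and 19734 in LT7. The groups did not overlap, but its 3.13-fold difference missed the threshold (adjusted p = 0.063, limma).

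The genes that commit the pathway to sterols had the lowest adjusted p of the list. Fdft1, squalene synthase, was at 1718 and 1550 in GFP and at 5407 and 4843 in LT7. It rose 3.36-fold (log2 change 1.75, SE 0.19, limma, adjusted p = 0.016). Sqle, squalene epoxidase, a controlled step of the pathway, rose from 6815 and 6791 to 32127 and 19580. Its rise of 3.95-fold (log2 change 1.98, SE 0.26, adjusted p = 0.027, limma) was the largest of the list, and LT7 replicate 1 was the higher array. Lss, lanosterol synthase, which closes the sterol rings, rose from 519 and 484 to 1606 and 1339, or 3.13-fold (adjusted p = 0.017, limma), and its other probe changed by the same 1.65 on the log2 scale.

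The enzymes that trim lanosterol followed. Cyp51, the lanosterol demethylase, had 3 probes with log2 changes of 1.48, 1.43 and 1.47, and all 3 were called. On the brightest its signal went from 908 and 733 to 2191 and 2066. Msmo1, the methyl sterol oxidase, was at 10773 and 12760 in GFP and at 33440 and 29209 in LT7, a 2.85-fold rise. Nsdhl, which acts in the same demethylation, rose 2.35-fold, and Tm7sf2, a sterol reductase, 2.42-fold. Ebp, the sterol isomerase of the following step, did not share in this and read 10831 and 11606 in GFP and 13174 and 9473 in LT7. The groups overlapped, and its change of 0.09 turned negative without GFP replicate 1 (-0.08) and without LT7 replicate 1 (-0.09).

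Among the regulators the sterol-sensing factor gene Srebf2 rose 2.28-fold, from 784 and 666 to 1593 and 1492 (log2 change 1.19, SE 0.17, limma, adjusted p = 0.037). Srebf1, which drives mostly fatty acid synthesis, was at 5364 and 5295 in GFP and 4761 and 4647 in LT7, with a log2 change of -0.08 that turned to 0.03 without GFP replicate 2. Insig1, which holds the SREBP proteins in the endoplasmic reticulum and is itself an SREBP target, had signals of 177 and 215 in GFP and 799 and 481 in LT7 and just missed the threshold (3.40-fold, adjusted p = 0.056, limma). The member that fell was Abca1, the transporter that exports cholesterol and a target of the LXR receptors, from 300 and 176 to 86.2 and 71.9 (2.73-fold, adjusted p = 0.049, limma). Next to this list Aacs and Rdh11 rose 2.84-fold and 2.53-fold. Vldlr, a lipoprotein receptor, rose 2.34-fold and Lpin1, a phosphatidate phosphatase, 2.53-fold.

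The median of the list stayed near its size when single arrays were left out, and the calls did not. Without GFP replicate 1, without GFP replicate 2 or without LT7 replicate 1 no member of the list was called by limma, with 18, 22 and 21 members upward at an unadjusted p under 0.05, and the median change was 1.07, 1.36 and 1.18. The calls also changed with the processing. No member was called up with quantile normalization, over all probes without a filter or with scaling on the spiked RNAs, with 20, 22 and 0 upward at an unadjusted p under 0.05. Without scaling limma called 4 up, and with normexp background correction 21 up and 1 down.

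**Figure D2:**
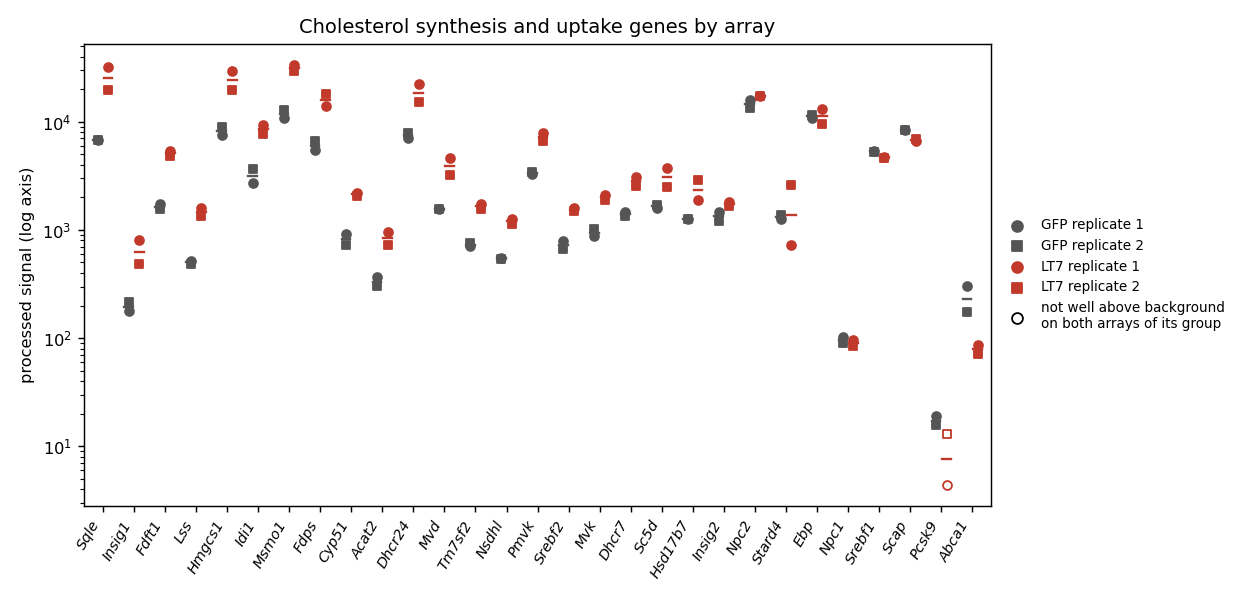
Processed signal (log axis) of 29 of the 31 cholesterol genes on each GFP array (grey) and LT7 array (red), ordered by their change; bars are geometric means of the 2 arrays and open symbols mark groups that were not well above background on both arrays. From Sqle at the left to Dhcr7 both LT7 arrays lie above both GFP arrays, and Abca1 at the right end lies below.

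The start regions of these genes were read from a RefSeq table (GRCm38.p6) to show what they share besides their change. The 250 bases before the start were searched on both strands for CCAAT, the letters of the NF-Y box that often stands beside SREBP sites, and for TCACNCCAC, the sterol regulatory element. Of the 18 genes at least 2-fold higher on both LT7 arrays 14 had an entry, and 13 of the 14 held CCAAT, 7 of them more than 1 match. A gene can have several windows. Counted by window, 13 of 17 (76.5%) held CCAAT, against 33.8% of all 32851 windows of the table. Counted by gene, 10133 of the 27025 in the table held it. Of the 8 other genes of the list with an entry 6 held it as well. TCACNCCAC was found in 1 of the 14, Hmgcs1, or 1 of the 17 windows, and in 1.05% of all windows. The windows of 3 of the genes called and of Hmgcs1, which holds 3 CCAAT matches, are printed below 5′ to 3′ on the strand of the gene, with CCAAT or its complement in capitals. They lie at chr10:76531355-76531604, plus strand (Lss), at chr13:119690101-119690350, plus strand (Hmgcs1), at chrX:72918271-72918520, plus strand (Nsdhl) and at chr5:4104698-4104947, minus strand (Cyp51). A match is a run of letters and not a bound site.
Lss: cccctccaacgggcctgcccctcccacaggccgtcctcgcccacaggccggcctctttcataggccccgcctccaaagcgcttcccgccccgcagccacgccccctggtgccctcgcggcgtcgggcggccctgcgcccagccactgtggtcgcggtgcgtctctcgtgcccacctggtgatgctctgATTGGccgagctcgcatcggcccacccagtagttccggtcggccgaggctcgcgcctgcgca
Hmgcs1: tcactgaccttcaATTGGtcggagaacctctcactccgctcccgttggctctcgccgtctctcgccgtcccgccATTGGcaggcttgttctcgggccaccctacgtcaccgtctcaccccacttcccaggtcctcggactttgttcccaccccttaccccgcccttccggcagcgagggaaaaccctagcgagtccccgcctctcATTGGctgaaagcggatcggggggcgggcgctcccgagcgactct
Nsdhl: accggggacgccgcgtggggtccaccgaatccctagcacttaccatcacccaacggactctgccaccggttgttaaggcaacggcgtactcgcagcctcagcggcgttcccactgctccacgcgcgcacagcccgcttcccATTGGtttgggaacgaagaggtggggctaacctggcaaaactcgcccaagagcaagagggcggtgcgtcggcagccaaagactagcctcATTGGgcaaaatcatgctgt
Cyp51: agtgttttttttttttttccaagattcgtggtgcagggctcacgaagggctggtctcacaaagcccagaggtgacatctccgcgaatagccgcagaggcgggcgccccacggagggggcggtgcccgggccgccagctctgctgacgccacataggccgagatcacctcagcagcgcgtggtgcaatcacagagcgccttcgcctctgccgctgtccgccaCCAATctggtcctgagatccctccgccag

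Acute phase genes held the deepest fall in LT7, that of Saa3. They encode plasma proteins that the liver, and fibroblasts in inflamed tissue, release under interleukin 1 and interleukin 6. Of 15 that met the rule 6 fell and none rose by limma's test (3 upward at an unadjusted p under 0.05), against 1.48% of all genes called down. By scaled signal, values near the floor included, all 6 lay at least 2-fold lower on both arrays. Hp, Saa2 and Lcn2 met the probe rule through GFP alone, so that the count of 6 is no measure of the list. In a fit of probes above background on all 4 arrays 3 of 11 were called down and none up. At an unadjusted p under 0.05 there were 3 upward and 4 downward. The list's median change was 0.16. The 6 changes of the called genes lay from -7.57 to -3.00 and those of the other 9 from -1.07 (Cp) to 1.07 (Serpina3g). In Hp, Saa2 and Lcn2 the LT7 values were at background, so that their changes are not measured sizes. The least folds of Saa2 and Lcn2 were 2.40 and 1.79, so that these genes may lie nearer to the other 9. Cp, ceruloplasmin, read 5250 and 3794 in GFP and 3095 and 1271 in LT7, which is 2.10-fold lower without overlap but not called (limma, adjusted p = 0.36).

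Saa3 (NM_011315), the serum amyloid A made outside the liver, was among the bright genes of GFP cells, with signals of 24372 and 13994, and was at 82.2 and 99.6 on the LT7 arrays. It fell 191-fold (log2 change -7.57, SE 0.35, limma, adjusted p = 0.0016). Saa1 (NM_009117) went from 8968 and 5578 to 164 and 171, or 39.5-fold (log2 change -5.30, SE 0.24, limma, adjusted p = 0.0016). Hp (NM_017370), haptoglobin, which binds free haemoglobin, fell from 1745 and 1039 to 11.8 and 14.95, where it was not well above background, and so at least 59.6-fold (limma, adjusted p = 0.0011). The groups lay far apart in these 3 genes on every array.

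Saa2 was much dimmer in GFP cells, at 79.8 and 36.8, and fell to 4.61 and 4.54, at least 2.40-fold. Saa1 and Saa2 are close paralogs, and a probe of the one could take up transcripts of the other. Steap4, a metalloreductase induced by inflammatory cytokines, fell 8.03-fold, from 311 and 149 to 25.6 and 24.4 (limma, adjusted p = 0.023). Lcn2, which sequesters bacterial siderophores, fell at least 1.79-fold, from 48.7 and 33.4 to 4.52 and 4.92 (limma, adjusted p = 0.0044). Ptx3, the long pentraxin, had overlapping groups, with 9615 and 10944 in GFP and 13178 and 10724 in LT7. Serpina3g read 5144 and 3907 in GFP and 9374 and 8248 in LT7, which is 2.10-fold higher but not called (limma, adjusted p = 0.057). Without GFP replicate 1 limma called 1 of the 6, without GFP replicate 2 it called 2, and without LT7 replicate 1 it called 4.

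The 250 bases before the start were searched in the same way for TTGCNNAA, letters common in sites of the C/EBP factors, which are known to drive acute phase genes, and for GGGANTTTC, part of a common form of the NF-κB site. Of the 6 genes called down 5 had an entry in the table, and all 5 held TTGCNNAA, against 9.56% of all windows. Of the 7 other genes of the list with an entry 4 held it too. GGGANTTTC was in none of these windows and in 0.941% of all. The windows of these 5 called genes are printed to show the match in each, 5′ to 3′ on the strand of the gene and with TTGCNNAA or its complement in capitals. They lie at chr7:46715677-46715926, minus strand (Saa3), chr7:46742981-46743230, minus strand (Saa1), chr7:46751583-46751832, plus strand (Saa2), chr2:32387740-32387989, minus strand (Lcn2) and chr5:7960222-7960471, plus strand (Steap4). The match starts 99 bases before the start of Saa3, 182 and 183 before those of Saa1 and Saa2, which hold the same letters there, 216 before that of Lcn2 and 87 before that of Steap4.
Saa3: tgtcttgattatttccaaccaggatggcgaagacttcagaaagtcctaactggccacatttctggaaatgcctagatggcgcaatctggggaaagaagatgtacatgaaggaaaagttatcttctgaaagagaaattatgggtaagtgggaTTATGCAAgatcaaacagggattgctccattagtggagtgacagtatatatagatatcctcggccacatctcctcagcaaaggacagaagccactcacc
Saa1: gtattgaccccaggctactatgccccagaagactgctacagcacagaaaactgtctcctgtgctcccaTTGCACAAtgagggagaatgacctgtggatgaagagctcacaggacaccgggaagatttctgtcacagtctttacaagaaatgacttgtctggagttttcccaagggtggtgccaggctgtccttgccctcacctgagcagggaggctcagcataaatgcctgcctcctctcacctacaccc
Saa2: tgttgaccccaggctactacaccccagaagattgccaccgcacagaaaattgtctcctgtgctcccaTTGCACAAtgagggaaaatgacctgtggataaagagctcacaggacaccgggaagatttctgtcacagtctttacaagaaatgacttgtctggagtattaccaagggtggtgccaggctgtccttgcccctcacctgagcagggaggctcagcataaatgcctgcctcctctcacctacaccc
Lcn2: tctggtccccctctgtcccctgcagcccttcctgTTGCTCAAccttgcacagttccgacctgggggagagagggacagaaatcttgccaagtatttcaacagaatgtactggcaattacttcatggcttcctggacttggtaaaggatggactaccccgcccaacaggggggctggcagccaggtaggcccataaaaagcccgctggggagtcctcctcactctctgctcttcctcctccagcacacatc
Steap4: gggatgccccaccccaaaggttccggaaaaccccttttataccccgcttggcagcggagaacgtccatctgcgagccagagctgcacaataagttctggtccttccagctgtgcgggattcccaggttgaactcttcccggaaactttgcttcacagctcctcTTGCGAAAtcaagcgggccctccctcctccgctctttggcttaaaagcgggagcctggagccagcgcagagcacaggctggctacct

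Of 35 genes for cytokines and their receptors 5 fell and 1 rose by limma's test, against 1.48% of all genes called down and 0.879% up, and 23 had a change below 0. The median change was -0.14. Il33, Il1a and Tslp met the probe rule through GFP alone, so that the count of 5 is no measure of the list. Of the 28 measured by probes above background on all 4 arrays none was called in a fit of such probes alone, with 3 upward and 6 downward at an unadjusted p under 0.05. Il6, the cytokine that drives the acute phase, went from 726 and 703 to 308 and 239, a 2.46-fold fall (log2 change -1.30, SE 0.20, limma, adjusted p = 0.043). Lif, of the same receptor family, fell 2.46-fold too, from 749 and 701 to 295 and 256. Il33, an alarmin stored in the nucleus, fell from 94.8 and 54.6 to 5.44 and 9.14, at least 3.18-fold. Il1a fell at least 1.22-fold, and Tslp, at 25.6 and 19.3 in GFP, fell below the lowest signal measured in LT7, so that no fold is given. The gene that rose was Socs2, an inhibitor of cytokine signalling, by 2.77-fold (limma, adjusted p = 0.038). Without LT7 replicate 1 limma called 4 of the 35 down.

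Among 30 genes of the NF-κB pathway and its receptors 2 fell and none rose, against 1.48% and 0.879% of all genes. At an unadjusted p under 0.05 there were 4 upward. The 2 that fell were Cd14, the co-receptor for bacterial lipopolysaccharide, from 967 and 852 to 313 and 343 (2.59-fold, limma, adjusted p = 0.030), and Nod2, a sensor of bacterial cell wall, at least 1.56-fold. Nod2 met the probe rule through GFP alone. In a fit of probes above background on all 4 arrays none of 27 was called, with 4 upward and 3 downward unadjusted. The median change of the list was 0.03. Of 16 complement genes Cd55, which protects cells from complement, fell from 74.4 and 71.2 to 5.01 and 4.69, at least 3.22-fold, and Serping1, the C1 inhibitor, at least 1.71-fold. None of the 16 rose by limma's test, with 1 upward at an unadjusted p under 0.05. Over all genes 1.48% were called down and 0.879% up. Cd55 and Serping1 met the probe rule through GFP alone, so that their count is no measure of the list. In a fit of probes above background on all 4 arrays none of 14 was called, with 1 upward and 0 downward unadjusted.

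Chemokines and interferon genes did not go one way. Of 14 chemokine genes 2 rose and none fell, against 0.879% and 1.48% of all genes, with 4 downward at an unadjusted p under 0.05. Cxcl10, a T cell attractant induced by interferon, went from 148 and 181 to 570 and 486 (3.44-fold, limma, adjusted p = 0.027) and Ccl5 from 50.1 and 30.8 to 98.8 and 93.3 (2.62-fold, adjusted p = 0.044, limma). Cxcl1, a neutrophil attractant, read 7678 and 7164 in GFP and 3117 and 3386 in LT7 without passing the threshold (2.13-fold lower, limma, adjusted p = 0.063). Of 51 interferon response genes Ifi27l2a rose 3.07-fold, and Ifit1 fell 3.33-fold and Gbp4 at least 1.58-fold. Without LT7 replicate 1 neither chemokine was called.

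**Figure D3:**
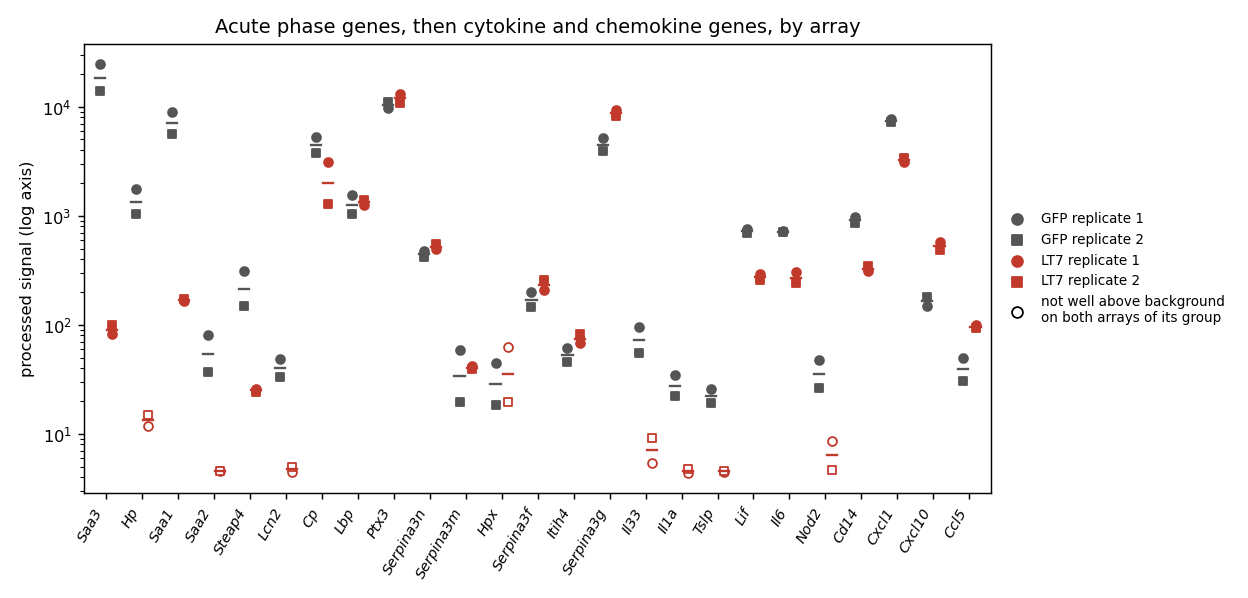
Processed signal (log axis) of the 15 acute phase genes, ordered by their change, and of 10 cytokine, receptor and chemokine genes on each GFP array (grey) and LT7 array (red); bars are geometric means of 2 arrays and open symbols mark groups not well above background on both arrays. The 6 genes at the left, from Saa3 to Lcn2, have changes of -3.00 or below, and those of the other 9 acute phase genes lie between -1.07 (Cp) and 1.07 (Serpina3g). In Hp, Saa2 and Lcn2 the LT7 values are at background, so that their changes are not measured sizes.

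The extracellular matrix held the most calls of any list by number, but not by share of its genes. Of 57 genes for matrix glycoproteins and proteoglycans 11 rose and 3 fell by limma's test, against 0.879% and 1.48% of all genes. In the cholesterol list these were 9 and 1 of 31. Epyc, Kera and Mfap2 met the probe rule through LT7 alone and Fbln1 through GFP alone, so that the matrix counts are no measure of the list. In a fit of probes above background on all 4 arrays 5 of 47 matrix genes were called up and 2 down. Of these 57, 15 lay at least 2-fold higher on both arrays and 5 lower, and the median change was 0.46, from 0.53 and 0.39 on the single LT7 arrays. In 33 of the 57 both LT7 arrays lay above both GFP arrays, against 27.6% of all genes.

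Some of the genes called encode small leucine-rich proteoglycans, which set the spacing of collagen fibrils. Lum (NM_008524), lumican, rose from 16390 and 14652 to 39507 and 37662, or 2.66-fold (log2 change 1.41, SE 0.18, limma, adjusted p = 0.024). Ogn, osteoglycin, rose 3.59-fold, from 805 and 550 to 2350 and 2120 (limma, adjusted p = 0.015), and Aspn, asporin, 2.75-fold. Epyc rose from 31.3 and 11.3 to 103 and 92.5, and only the first of its GFP values was well above background. Kera, keratocan, rose at least 3.38-fold. Prelp is of the same family and fell 4.74-fold, from 7108 and 5148 to 1316 and 1081 (log2 change -2.24, SE 0.19, limma, adjusted p = 0.0075). Bgn, biglycan, read 3742 and 3002 against 5235 and 4365 and was not called.

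Among glycoproteins Postn, periostin, a matrix protein of fibroblasts under load, rose 2.90-fold, from 11618 and 9110 to 29137 and 26732 (limma, adjusted p = 0.018). Sparcl1 rose 4.25-fold and Edil3, an integrin ligand, 5.98-fold, from 60.2 and 70.9 to 406 and 328 (limma, adjusted p = 0.0083). Tnn, tenascin N, rose 3.72-fold and Aebp1, which binds collagen, 2.37-fold. Mfap2, of the microfibrils, rose at least 3.25-fold on the probe counted, the brightest by mean log2 signal, while its other probe read 22.2 and 15.1 in GFP and 13.4 and 26.1 in LT7 and was not called (limma, adjusted p = 0.92). Srpx2, a secreted ligand of the urokinase receptor, fell 12.9-fold, from 658 and 552 to 38.9 and 48.8 (limma, adjusted p = 0.0027), and Fbln1, fibulin 1, at least 3.68-fold. Without GFP replicate 1 and without GFP replicate 2 none of the 57 was called, with 19 and 17 upward at an unadjusted p under 0.05, and without LT7 replicate 1 limma called 2 up and 2 down.

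Of 28 collagen chains that met the rule 1 rose and 1 fell, against 0.879% and 1.48% of all genes. Col24a1, which fell, met the probe rule through GFP alone. In a fit of probes above background on all 4 arrays none of 25 was called, with 8 upward and 2 downward at an unadjusted p under 0.05. The brightest probes of Col1a1 and Col1a2, the chains of type I collagen, were saturated on all 4 arrays and could show no change. Another probe of Col1a1 read 7022 and 5691 in GFP and 6963 and 9688 in LT7 and was not called. Col3a1, the fibrillar chain that joins type I collagen in soft tissue, rose from 9584 and 6275 to 32349 and 24542 (3.89-fold, limma, adjusted p = 0.033), and Col24a1 fell from 43.2 and 17.2 to 4.82 and 5.15, at least 1.205-fold. Of 39 matrix proteases and inhibitors Serpine2, an inhibitor of thrombin and plasminogen activators, rose 5.96-fold, from 140 and 78.7 to 589 and 577 (limma, adjusted p = 0.010), and Mmp9, a gelatinase, 2.79-fold. Ctsk, the collagen-cleaving cathepsin K, fell at least 1.87-fold. Of 24 integrin and laminin genes Itga9, a receptor chain for tenascin, rose 6.03-fold, from 39.7 and 32.7 to 185 and 222 (limma, adjusted p = 0.0058). Its other probe was called too.

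Contractile and epithelial genes added a few single rises. Of 42 actin and contractile genes 2 rose and none fell, against 0.879% and 1.48% of all genes. At an unadjusted p under 0.05 there were 10 upward and 2 downward. Myl9, the regulatory light chain of non-muscle and smooth muscle myosin, went from 1424 and 1171 to 3445 and 4094 (3.11-fold, limma, adjusted p = 0.041), and Lmod1, which nucleates actin filaments in smooth muscle, rose 2.99-fold. Of 19 keratin and junction genes Krt15 rose from 16.99 and 13.4 to 277 and 339 (limma, adjusted p = 0.0016), where the first of the GFP values alone was well above background, and Cldn19 rose 7.45-fold. Of 22 cadherins Cdh22 fell from 200 and 172 to 4.58 and 4.59, at least 8.19-fold, and none rose, with 6 upward at an unadjusted p under 0.05. The epithelial marker Cdh1 was at background on all 4 arrays.

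Among genes at background in GFP the transcription factors Pitx1, Dach1 and Hoxa11 had the highest least folds of the genes called up. Pitx1 (NM_011097), a specifier of the hindlimb, was at 2.86 and 2.79 on the GFP arrays and at 149 and 127 on the LT7 arrays, at least 10.9-fold higher (limma, adjusted p = 0.00067). Dach1, an eye and limb cofactor, rose at least 8.15-fold, to 98.1 and 108, and Hoxa11, a homeobox gene of the middle limb segment, at least 6.47-fold, to 85.0 and 78.2. Tbx1, a regulator of the pharyngeal arches, rose at least 3.58-fold, Pax6 at least 4.02-fold and Gata3 at least 2.26-fold. In all 6 genes no GFP array was well above background, so that their log2 changes are not measured sizes. Of 59 limb and mesoderm factors these 5 (without Hoxa11) rose and Hmx2 fell, at least 1.29-fold. The 5 had met the probe rule through LT7 alone, where they were high, and Hmx2 through GFP alone, so that their count is no measure of the list. Of the 44 measured by probes above background on all 4 arrays none was called in a fit of such probes alone, with 8 upward and 3 downward at an unadjusted p under 0.05. Without LT7 replicate 1 limma called 3 of the 59 up and 1 down.

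Among 22 Hox genes the change was not shared. Hoxd10, a posterior member of its cluster, fell from 88.5 and 76.8 to 25.5 and 23.8 (3.12-fold, limma, adjusted p = 0.024), and Hoxb9 fell 2.87-fold on its brightest probe, from 707 and 525 to 194 and 202. The other Hoxb9 probe went the other way with a change of 0.06, from 253 and 158 in GFP to 379 and 99.5 in LT7, and the LT7 arrays lay on either side of the GFP arrays. Hoxb5 read 59.3 and 39.0 in GFP and was not well above background in LT7, and was not called (limma, adjusted p = 0.10).

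**Figure D4:**
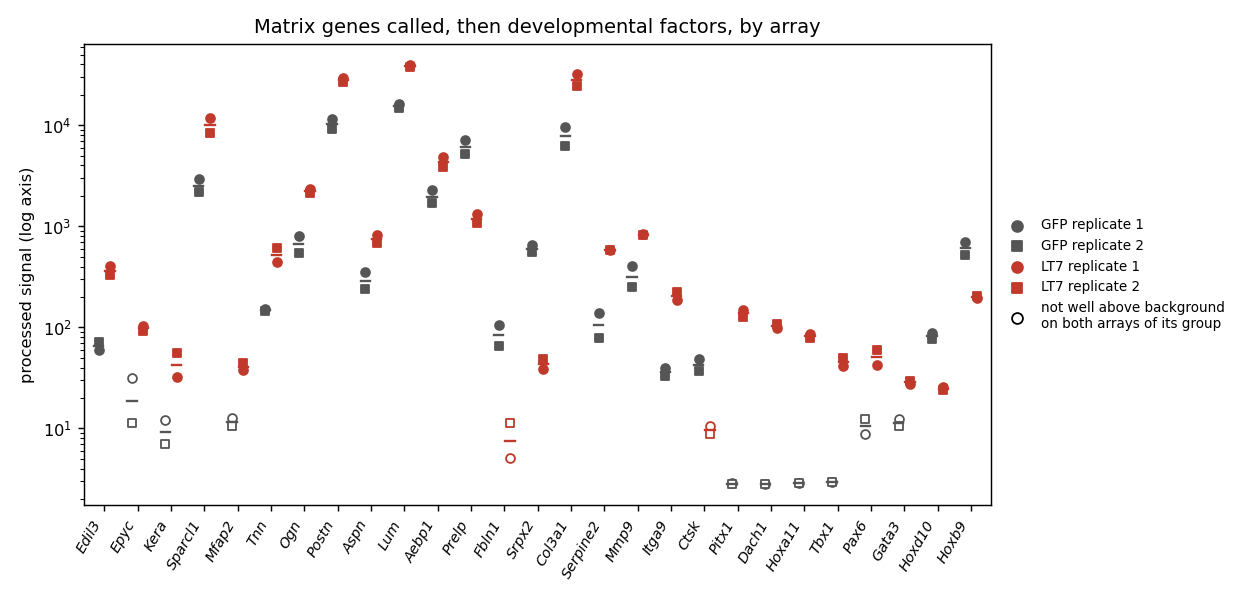
Processed signal (log axis) of the 14 matrix glycoprotein and proteoglycan genes called by limma, ordered by their change, of 5 further matrix or integrin genes and of 8 developmental factors, on each GFP array (grey) and LT7 array (red); bars are geometric means of 2 arrays and open symbols mark groups not well above background on both arrays. Pitx1, Dach1, Hoxa11 and Tbx1 lie between 2.79 and 2.95 on both GFP arrays, at the floor of the signal.

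In the TGF-β and BMP list of 51 genes 3 fell and none rose, against 1.48% of all genes called down, with 3 upward at an unadjusted p under 0.05. Grem1, gremlin, which traps BMP ligands, fell 18.9-fold, from 1880 and 1332 to 62.1 and 98.6 (log2 change -4.24, SE 0.29, limma, adjusted p = 0.0043). Acvrl1, a receptor for BMP ligands, fell at least 1.71-fold and Inhbb, an activin chain, at least 1.59-fold. Acvrl1 and Inhbb met the probe rule through GFP alone, so that the count of 3 is no measure of the list. In the list of VEGF, PDGF, IGF and HGF genes 4 of 42 were called down and none up, against 1.48% and 0.879% of all genes. At an unadjusted p under 0.05 there were 2 upward. Igf1 fell 5.85-fold on its brightest probe, from 227 and 204 to 30.0 and 39.5 (limma, adjusted p = 0.0081), and both of its other probes were called down. Vegfc, a lymphatic growth factor, fell from 90.2 and 87.8 to 10.4 and 9.58, at least 3.94-fold, and Bdnf 2.67-fold. Angpt1, called as well, read 18.1 and 18.6 in GFP and was at background in LT7. Those GFP signals lie below the lowest signal well above background on either LT7 array, so that no fold is given. Vegfc and Angpt1 met the probe rule through GFP alone, so that the count of 4 is no measure of the list. Without LT7 replicate 1 limma called 2 of the 51 and 2 of the 42.

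In the Wnt list of 42 genes Dkk2, a secreted Wnt antagonist, fell at least 3.24-fold, from 78.6 and 68.1 to 6.30 and 4.57 (limma, adjusted p = 0.0026). Of 33 FGF and EGF genes Spry1, an inhibitor of receptor tyrosine kinases, rose 2.46-fold and Fgf10, a limb bud ligand, fell 2.58-fold, from 997 and 830 to 345 and 314. Of 26 Notch and hedgehog genes the Notch ligand Jag1 rose 3.27-fold, from 104.9 and 85.7 to 379 and 222, and Dhh, a hedgehog ligand, fell at least 2.13-fold. Guidance cues split, with 2 of 44 up and 3 down, against 0.879% and 1.48% of all genes. Epha3 rose at least 4.83-fold, from not above background to 108 and 34.3, while its relative Epha7 fell at least 2.09-fold. Epha3 and Sema6d met the probe rule through LT7 alone and Epha7 through GFP alone, so that these counts are no measure of the list. Sema6d rose from 20.9 and 9.52, the latter not well above background, to 60.3 and 61.5, and Sema7a fell 3.66-fold and Plxna4, a semaphorin receptor, 3.17-fold.

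Retinoid, steroid and prostaglandin genes had 5 of 30 down and 1 up, against 1.48% and 0.879% of all genes, with a median change of -0.31. Akr1c18, which inactivates progesterone, fell from 164 and 262 to 4.31 and 4.73, at least 9.17-fold (limma, adjusted p = 0.0027), and Aldh3a1, an aldehyde dehydrogenase, at least 7.06-fold. Akr1c18 and Aldh3a1 met the probe rule through GFP alone, so that the count of 5 is no measure of the list. Hsd11b1, which regenerates active glucocorticoid, fell 3.65-fold and Rarres2, the precursor of chemerin, 3.70-fold. Ptgs2, the inducible cyclooxygenase, fell 3.17-fold, from 1214 and 1526 to 409 and 395 (limma, adjusted p = 0.038). Crabp1, which binds retinoic acid in the cytosol, rose 2.58-fold. Ptger4, a prostaglandin receptor, read 256 and 198 in GFP and 18081 and 283 in LT7, so that its mean rests on LT7 replicate 1. Without LT7 replicate 1 limma called 3 of the 30 down.

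In other lists single members were called. Fabp4, a lipid carrier of adipocytes, fell 7.69-fold, from 505 and 455 to 57.0 and 59.5 (limma, adjusted p = 0.0052), while Adipoq, Cfd and Plin1, which define that cell type, were at background on all 4 arrays. Hlf, a PAR bZIP factor of the clock output, fell 6.16-fold, from 535 and 331 to 68.8 and 59.1 (limma, adjusted p = 0.014). Pmaip1, a p53 target that promotes apoptosis, fell at least 1.34-fold and Sod3, the extracellular superoxide dismutase, at least 3.28-fold.

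Several large gene groups had no called member in LT7. By limma none of 79 cytosolic ribosomal proteins was called, with 0 at an unadjusted p under 0.05, and their changes lay between -0.79 and 0.21. Of 53 genes of RNA polymerase I and the nucleolus none was called, with 3 downward and 0 upward unadjusted, and the median change was -0.16. Of 75 respiratory chain genes 1 was upward and 1 downward at an unadjusted p under 0.05, and of 69 cell cycle and replication genes 2 were downward. The same held for 42 genes of glycolysis and hypoxia, 43 of heterochromatin and the lamina, 31 immediate early genes, 17 of sirtuins and NAD metabolism and 12 transcription factors of the epithelial-mesenchymal transition, with at most 6 of a list past the unadjusted threshold in one direction. A call that was not made does not show that these genes were equal.

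**Figure D5:**
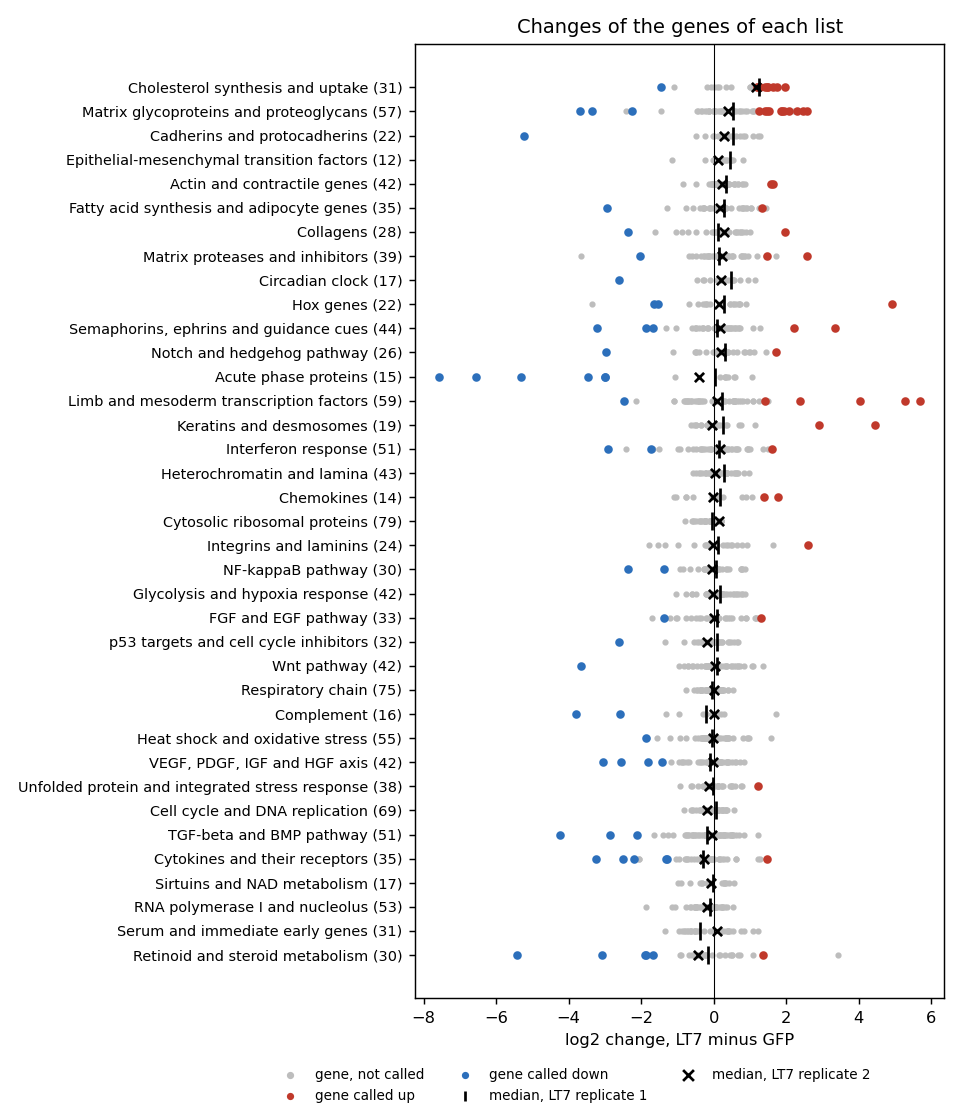
Each row is a gene list with its number of genes that met the rule, each point is the log2 change of a gene (LT7 minus GFP), colours mark genes called by limma, and the bar and the cross are the list's medians on LT7 replicates 1 and 2. The cholesterol list sits at the top with medians of 1.25 and 1.18, while the acute phase list has 6 genes far to the left of a median near 0.

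Of the largest rises outside the lists several were of genes at background in GFP cells. Nat8l, which makes N-acetylaspartate, rose at least 4.19-fold, Ptgdr, the prostaglandin D2 receptor, at least 4.005-fold, and Slc16a4, a monocarboxylate carrier, at least 2.63-fold. Tmem178 rose at least 3.42-fold, Stk32c at least 2.73-fold and Myl6b, a myosin light chain, at least 2.08-fold. Syngr1, a vesicle protein, rose at least 5.14-fold on its brightest probe, while its other probe went the other way, from 35.2 and 22.8 in GFP to 18.6 and 10.3 in LT7, without being called (limma, adjusted p = 0.28). Ckb, the brain-type creatine kinase, rose on its brightest probe from 30.2 and 12.8, the latter not well above background, to 353 and 252 (limma, adjusted p = 0.0079), and its other probe was called too. Glipr1, well above background on both GFP arrays, rose 9.37-fold, from 80.4 and 50.6 to 693 and 449.

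Outside the lists Vip, the vasoactive intestinal peptide, fell from 330 and 342 to 4.51 and 7.90, at least 14.9-fold (limma, adjusted p = 0.0027). Brinp3, a neural protein named Fam5c on the array, fell at least 12.7-fold, from 306 and 269 to 4.26 and 4.47 (limma, adjusted p = 0.00067). Agt, angiotensinogen, fell from 709 and 498 to 51.9 and 13.6, with the LT7 arrays far apart and the second not well above background. Chst1, a keratan sulfate sulfotransferase, fell at least 7.31-fold, Tusc1 at least 8.72-fold and Thrb, a thyroid hormone receptor, at least 10.2-fold. Speer4b fell at least 3.70-fold and Unc93a at least 3.92-fold.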

How the data were processed

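RNA of GFP, LT7 and ST7 cells (2 samples each) was labelled with Cy3 and hybridized to 6 single-colour arrays on 1 slide, read in 2 scans. The deposited scanner output, written by the authors with Feature Extraction 10.5.1.1 (protocol GE1_105_Dec08), gives a processed intensity from which the background had been subtracted, with surrogate values near background. The deposited series table holds log2 values that the authors scaled by a 75th percentile shift. It served as an alternative.

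Here outlier spots were left out, repeated spots averaged, and the array's 75th percentile subtracted from the log2 intensity. The rule's probes were tested with limma 3.58.1 (R 4.3.3) on group means of all 6 arrays, with Benjamini-Hochberg adjustment over 18191 probes and a threshold of 0.05. With 2 arrays a group the precision is limited by their number. The code was tested on simulated data. Accessions named genes through RefSeq (GRCm38.p6) for 17842 probes, and the array's name was kept otherwise. Of 52 called genes with several probes 50 had probes of the same sign.

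Genes were named as the 15 largest called rises and falls that were 2-fold on each LT7 array, as up to 4 genes of each of 37 lists by size of change with up to 6 called ones, and as Sirt7 and cell type markers. Members and lists were chosen with earlier results of these data known. Some genes of the lists are not reported here. The further cholesterol and matrix genes, Il6, Ptgs2, Crabp1 and the genes outside the lists in the closing section were named after their values were seen. Lists were described by counts and medians, without a test. Other scalings, filters, background corrections, fits and the study's fold rule were tried, and each array was left out in turn.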

Additional observations from a re-analysis of the deposited data

Results flagged for a closer look

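The 5 spiked-in control RNAs that were used, which belong to no comparison, had a mean log2 signal of 12.86 on LT7 replicate 1. This was above the 8.56 and 8.75 of the GFP arrays and the 8.69 of LT7 replicate 2. They were singled out because this signal lies outside the genes measured and above its level in the control samples. Groups of 2 arrays are too small for a test of single outlying samples.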

How the results depend on the processing

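Limma called 130 probes up and 244 down. The counts stayed within 1.5 times of these with the percentile of the probes above background on each of the 4 arrays, with only the 4 arrays compared, with an intensity trend in the prior and with the series table. Without scaling 64 were called up. Quantile normalization gave 11 up and 24 down, with normexp background correction 418 were up, over all probes without a filter 27 and 81, and when each of the 4 arrays had to be above background 46 and 47. Scaling on the spiked RNAs moved the median change of all genes by -2.21 and left 0 up, with 2 at an unadjusted p under 0.05, and 12 down. Without LT7 replicate 1, an alternative chosen after seeing the data, that scaling moved the median by -0.24 and left 43 up and 171 down. The study's fold rule, a log2 ratio of 0.8 on each array and a mean over 1, took 377 up and 535 down. Leaving out single arrays gave from 3 to 289 up and from 5 to 791 down. Where 1 array was left in a group, its spread was taken from the others.

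The replicate numbers did not pair the samples, since the deviations of same-numbered arrays correlated at r = -0.06. With the replicate number as a block 37 probes were up and 135 down, and no cholesterol gene was called up, with 22 upward at an unadjusted p under 0.05. Relative to these shifts of the median, 134 of the 136 genes named kept their direction under every alternative tried. Ebp ranged from -0.093 to 0.280 when single arrays were left out and was at -0.035 with scaling on the spiked RNAs without LT7 replicate 1. Srebf1 ranged from -0.196 to 0.032 and was at 0.010 with that scaling. The cause of these differences was not tested. The signal over background limits the genes at the floor, which have only a least fold.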

Other observations

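Some further genes fell together in LT7 by their known function. They were chosen after their values were seen, so that no test stands behind the grouping. Of the thyroid hormone genes, Dio2, the deiodinase that activates the hormone, fell 3.31-fold, from 1759 and 2039 on the GFP arrays to 655 and 435 on the LT7 arrays (limma, adjusted p = 0.040). The receptor gene Thrb fell as well. Of the precursors of vasoactive peptides, Edn1 read 18.0 and 25.4 in GFP and was at background in LT7, too near the lowest signal measured there for a fold. The kininogens Kng1 and Kng2, which are paralogs, fell at least 1.12-fold and at least 3.39-fold, beside Vip and Agt. Stc1, a secreted regulator of calcium and phosphate, fell 9.10-fold.

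Among rises, the gap junction gene Gjb5 went up 4.73-fold, from 34.4 and 42.9 to 205 and 140. Lrrc17, a secreted leucine-rich protein, rose 8.32-fold at a high level, from 2936 and 1909 to 16359 and 20688 (limma, adjusted p = 0.0059). The neighbouring imprinted genes Snrpn and Ndn went opposite ways, with Snrpn 2.74-fold up and Ndn 4.25-fold down. The probe of Snurf, a transcript that shares its start with Snrpn, read 17.6 and 18.1 in GFP and was at background in LT7. Those GFP signals lie below the lowest signal well above background on the LT7 arrays, 20.02 and 22.3, so that no fold is given. None of these genes was called when either GFP array was left out.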
